A study of Mus musculus with 2 samples.

Results

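The transcription factors that direct blood progenitors into neutrophils and monocytes were followed in single cells of mouse bone marrow. The set was named by symbol as Cebpa, Cebpb, Cebpd, Cebpe, Gfi1, Spi1, Irf8, Klf4, Myb and Runx1, 10 genes in all. Of these, 9 were among the 13211 genes with counts and all were kept. Cebpd was not analysed here.

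These factors act in sequence and partly against each other. PU.1, the product of Spi1, and RUNX1 open the myeloid programme in early progenitors, and MYB keeps progenitors dividing. C/EBPα then starts granulocyte formation, C/EBPε drives the secondary granule genes of neutrophils, and GFI1 holds back monocyte genes, whereas IRF8 and KLF4 favour monocytes and dendritic cells. C/EBPβ is best known for emergency granulocyte formation and for its part in monocytes and macrophages.

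The study asked how the marrow differs when type I collagen is deleted with a Cre under the promoter of Fsp1, also called S100a4. One library came from Fsp1-Cre;Col1a1flox/flox mice, here Col1a1fspKO, and the other from WT mice, whose detailed genotype is Cre-negative;Col1a1flox/flox, so both groups carry the floxed alleles. Each library was made from femur and tibia marrow of 2 mice aged 2 months, which was flushed, pooled and sorted for live cells before droplet sequencing of 3' RNA ends. With 1 library per genotype there is no replicate check on any difference between genotypes, no test was made and no p-value is given. The 95% intervals in parentheses are exact (Poisson for levels, binomial for ratios, Clopper-Pearson for shares) and cover counting error only.

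The Col1a1fspKO library held 1309 cells with a median of 4954 UMIs (unique molecular identifiers, each counting 1 captured RNA), and the WT library 1169 cells with a median of 5534. The libraries shared 2 cell barcodes. Clustering without the factors gave 145 myeloid progenitor-like cells, 209 cells of a cluster led by Fcnb, 297 immature, 284 maturing and 153 mature neutrophil-like cells, and 544 monocyte-like cells in 3 clusters. The Fcnb cluster kept the name of its leading gene because its leading genes held more markers of immature neutrophils than of preneutrophils. Col1a1 had 3 UMIs in Col1a1fspKO and 0 in WT, so the marrow cells give no check of the deletion. S100a4, whose promoter drives the Cre, had 94.6% and 95.7% of its UMIs in monocyte-like cells.

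In the mm10 build (GENCODE M21) Cebpa lies at chr7:35119293-35121928, Cebpb at chr2:167688915-167690418, Cebpe at chr14:54710360-54712174, Gfi1 at chr5:107716657-107726036 and Spi1 at chr2:91082390-91115756. Irf8 lies at chr8:120736358-120756694, Klf4 at chr4:55527143-55532466, Myb at chr10:21124935-21160984 and Runx1 at chr16:92601466-92826149. A gene annotated on the opposite strand overlaps Cebpa, Cebpb, Gfi1, Myb and Runx1. Those of Cebpb (Tmem189) and Myb (Gm26577) had counts of their own, and the strand setting of the counting is not given in the sources used here.

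RefSeq promoter windows of GRCm38.p6 matched 7 of the factors. The 250 bases before the start are shown for Cebpa and Cebpb, which were each lower in Col1a1fspKO monocyte-like cells as a whole. They are also shown for Gfi1, the factor furthest apart in progenitor-like cells. Capitals mark each match to 5 motifs searched on both strands: TTGCNNAA for C/EBP, GAGGAA for PU.1, TGTGGT for RUNX, the CREB half-site TGACG and the TATA box TATAAA.
Cebpa, chr7:35119043-35119292, plus strand: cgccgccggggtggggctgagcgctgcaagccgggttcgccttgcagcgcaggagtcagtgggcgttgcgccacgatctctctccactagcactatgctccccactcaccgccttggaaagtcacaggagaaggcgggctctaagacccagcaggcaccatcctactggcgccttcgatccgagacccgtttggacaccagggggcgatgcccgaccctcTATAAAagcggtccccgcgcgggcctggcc
Cebpb, chr2:167688665-167688914, plus strand: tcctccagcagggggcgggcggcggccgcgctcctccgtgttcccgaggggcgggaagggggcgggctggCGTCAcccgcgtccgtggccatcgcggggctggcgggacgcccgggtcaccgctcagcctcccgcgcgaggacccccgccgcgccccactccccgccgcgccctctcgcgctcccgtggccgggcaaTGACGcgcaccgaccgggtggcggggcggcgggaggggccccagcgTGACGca
Gfi1, chr5:107725806-107726055, minus strand: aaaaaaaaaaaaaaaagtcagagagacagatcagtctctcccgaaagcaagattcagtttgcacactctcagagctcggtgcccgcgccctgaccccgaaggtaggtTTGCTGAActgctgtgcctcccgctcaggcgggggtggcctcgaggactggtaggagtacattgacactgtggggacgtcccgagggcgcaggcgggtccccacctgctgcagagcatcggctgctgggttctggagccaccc
The Cebpa window held a TATAAA match that began 30 bases before the start, a motif in 12.4% of all 32851 promoter windows of this length. The Cebpb window held 3 CREB half-sites, which began 180, 53 and 7 bases before the start, and 17.8% of windows held at least 1. The Gfi1 window lies before a RefSeq start inside the gene as GENCODE draws it and held a C/EBP match 143 bases before that start, a motif in 9.56% of windows. Another Gfi1 window, chr5:107724344-107724593, held 0 matches to the 5 motifs. A match describes letters in a window, not a bound site.

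Spi1, the gene of PU.1, was read at every myeloid stage and made up a larger share of UMIs at later neutrophil stages. Its level, in UMIs per 1000000 UMIs of the group (CPM), was 180.4 in progenitor-like cells of Col1a1fspKO and 221 in WT. It was 411 and 413 in the Fcnb cluster, 548 and 459 in immature, 669 and 605 in maturing and 746 and 629 in mature neutrophil-like cells, here and below Col1a1fspKO first. The level in the Fcnb cluster was 2.28 (1.87 to 2.78) and 1.87 (1.58 to 2.23) times that of progenitor-like cells, and the ratio of mature to maturing cells was 1.12 (0.953 to 1.30) and 1.04 (0.807 to 1.33), intervals that include 1. Monocyte-like cells held 552 and 519.9 CPM and B cells, where PU.1 is also at work, 137 and 111. Erythroid cells, which silence the gene, had 20.2 and 8.75 CPM. Per cell the mean Spi1 count was 3.90 and 3.79 UMIs in the Fcnb cluster and 2.41 and 2.20 in mature neutrophil-like cells. Median depth was 8376 and 8585 UMIs in the former and 3002 and 3278 in the latter. From the Fcnb cluster on, Spi1 thus rose as a share of UMIs and not in UMIs per cell.

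Myb was highest in progenitor-like cells among the myeloid groups and lower in the Fcnb cluster, with few UMIs at later neutrophil stages. It had 162 and 189 UMIs or 199 and 221 CPM in progenitor-like cells, where 77.3% and 85.7% of cells had a UMI, and 51.5 and 56.8 CPM in the Fcnb cluster. The ratio of the Fcnb cluster to progenitor-like cells was 0.259 (0.181 to 0.365) and 0.257 (0.190 to 0.344), nearly the same in both libraries. Levels of 33.4 and 28.2, 11.7 and 24.9 and 8.23 and 7.15 CPM followed in immature, maturing and mature cells. These rest on 23 and 20, 7 and 11 and 3 and 1 UMIs, so the size and order of the steps between them are loose. B cells reached 185 and 167 CPM.

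Runx1, the core-binding factor of early blood formation, was low through the granulocyte series. Progenitor-like cells held 58.9 (43.4 to 78.1) and 51.4 (37.3 to 69.0) CPM, the Fcnb cluster 22.8 and 32.5 and immature neutrophil-like cells 18.9 and 15.5. From the Fcnb cluster to mature cells the intervals of neighbouring stages overlapped, so no order is resolved there. Basophil and eosinophil-like cells, 9 and 18 in number, had 322 (204 to 484) and 193 (119.8 to 296) CPM, above progenitor-like cells in both libraries. This group was led by Prss34, Mcpt8, Cpa3, Ms4a2 and Fcer1a, genes of basophils and mast cells, so it does not show what eosinophils hold.

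Cebpa was nearly absent in the middle of the neutrophil series. Its product is needed to enter the granulocyte path, and its level was 47.9 (34.0 to 65.4) and 67.7 (51.4 to 87.6) CPM in progenitor-like cells. In the Fcnb cluster it had 3 and 8 UMIs, or 3.59 and 7.21 CPM, and in immature neutrophil-like cells 1 and 3 UMIs. Maturing cells had 16.6 and 22.7 CPM and mature cells 27.4 (13.2 to 50.5) and 35.7 (11.6 to 83.4), from 10 and 5 UMIs. The mature level was 7.64 (1.97 to 43.2) and 4.95 (1.27 to 17.2) times that of the Fcnb cluster, so the direction was shared by the libraries while the size is loose. Basophil and eosinophil-like cells had the highest level, 771 (581 to 1003) and 580.5 (446 to 743) CPM.

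Cebpe took the opposite course and was high where Cebpa was low. It had 217 (186 to 252) and 148 (124 to 176) CPM in progenitor-like cells, 989 (923 to 1059) and 997 (939 to 1057) in the Fcnb cluster and 898 and 896 in immature neutrophil-like cells. It was lower at each later stage, with 423 and 494 CPM in maturing and 170.2 and 343 in mature cells. In the Fcnb cluster 98.9% and 99.2% of cells had a Cebpe UMI, and 88.6% and 87.6% once each cell was thinned to 2500 UMIs. Among B cells the share was 4.44% and 6.33%, at median depths of 4326 and 5469 UMIs against 8376 and 8585 in the Fcnb cluster. Cebpe is itself among the genes that lead this cluster, although it was not used to form it. No Cebpe UMI was found in plasmacytoid dendritic cells or in basophil and eosinophil-like cells of either library, the latter a group led by basophil genes.

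Gfi1, a repressor that protects the neutrophil path, gave few UMIs at any stage. It had 35 and 18 UMIs in progenitor-like cells, or 42.9 (29.9 to 59.7) and 21 (12.5 to 33.2) CPM, then 23.9 and 18.9 CPM in the Fcnb cluster, 14.5 and 15.5 in immature and 6.66 and 4.53 in maturing cells. Mature cells held 1 UMI in Col1a1fspKO and 0 in WT. No Gfi1 UMI was seen in any of the 267 and 277 monocyte-like cells, and a count of 0, bounded here at 3 UMIs per library, allows a level of up to 1.53 and 1.54 CPM and a share of up to 1.12 and 1.08% of cells with a UMI.

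Cebpb was highest in monocyte-like cells. The level there was 1029 (985 to 1075) and 1311 (1261 to 1363) CPM, against 134 and 159 in progenitor-like cells. Along the neutrophil series it passed through a low point, from 211 and 228 CPM in the Fcnb cluster to 85.7 and 79.0 in immature, 123 and 118 in maturing and 329 and 314 in mature cells. The ratio of mature to maturing cells was 2.67 (1.98 to 3.62) and 2.67 (1.74 to 4.06). Cebpa and Cebpb thus both had their lowest neutrophil value at the immature stage, where Cebpe was still near its highest.

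Irf8 and Klf4, the monocyte and dendritic cell factors, were nearly unread in neutrophils. Irf8 had 201 and 189 CPM in progenitor-like cells but 9.58 and 5.41 in the Fcnb cluster, a ratio of 0.0476 (0.0202 to 0.0960) and 0.0286 (0.0103 to 0.0636). Monocyte-like cells held 375 and 397 CPM, and plasmacytoid dendritic cells, which depend on IRF8, 3688 (3423 to 3968) and 4467 (4114 to 4842). Klf4 had 274 and 265 CPM in monocyte-like cells, which held 92.0% and 90.7% of all its UMIs. The 4 neutrophil clusters together had 7 and 3 Klf4 UMIs, and progenitor-like cells 6 and 10.

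**Figure D1:**
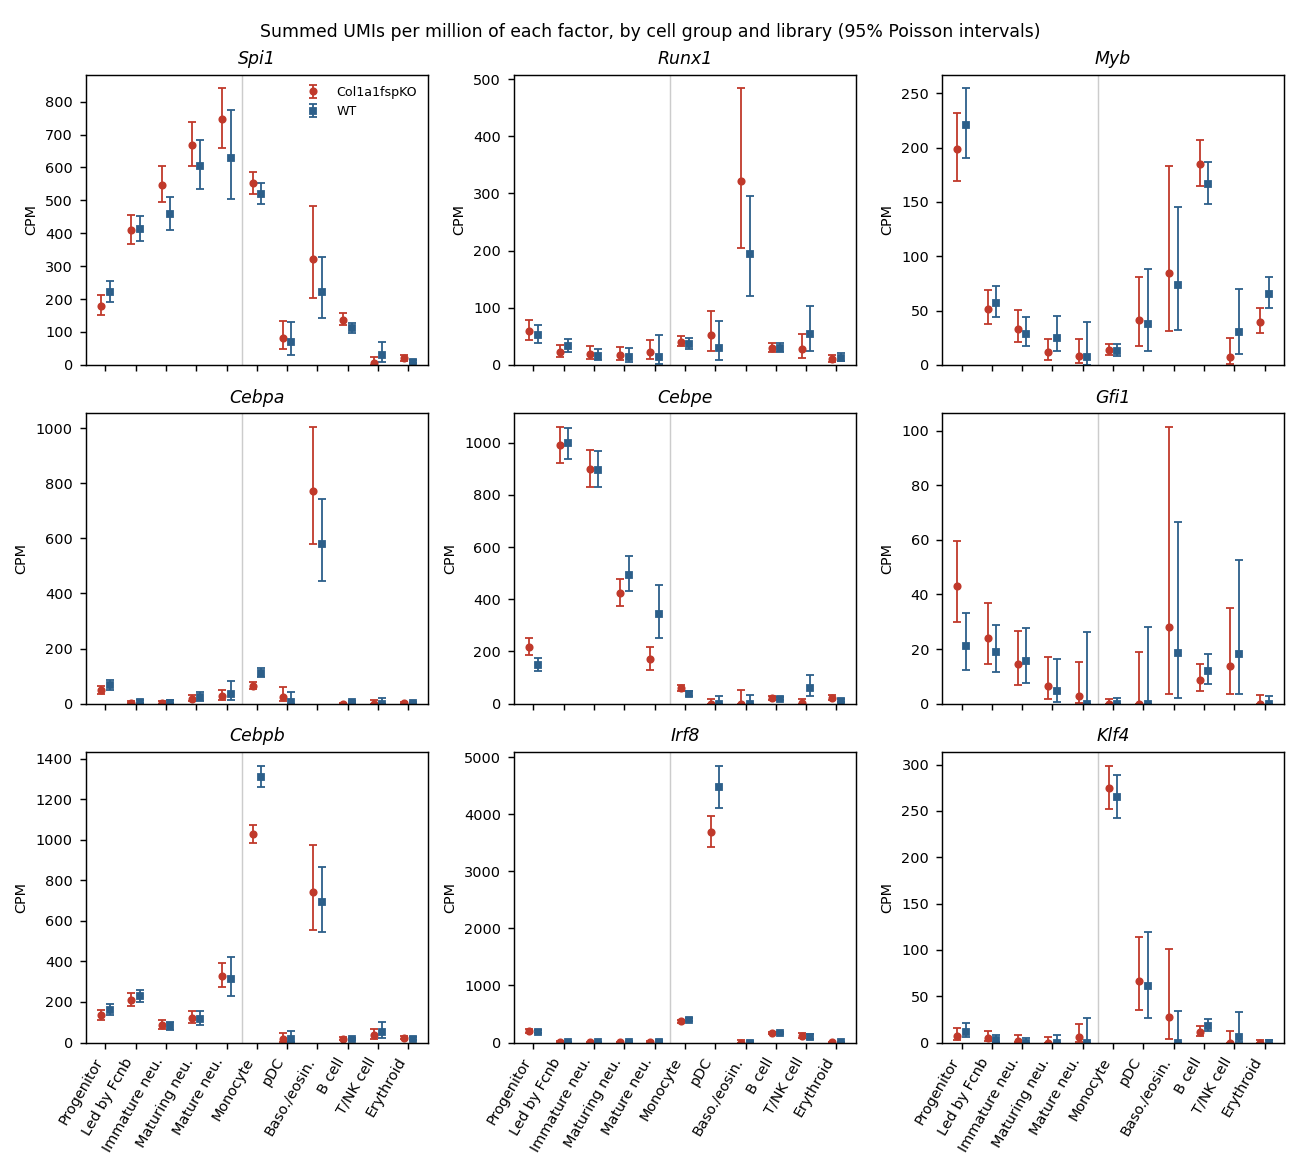
Level of each factor in 11 cell groups, in UMIs per 1000000 (CPM, linear axes that differ between panels), with 95% Poisson intervals from counting alone; red circles are Col1a1fspKO, blue squares WT, and groups left of the grey line run from progenitor-like to mature neutrophil-like cells. Cebpe reaches 989 and 997 CPM in the Fcnb cluster, where Cebpa is at 3.59 and 7.21, and Klf4 is highest in monocyte-like cells, at 274 and 265 CPM.

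Within the progenitor-like group the cells rich in Irf8 were mostly not those rich in Cebpe. With at least 5 UMIs as the mark, a value chosen after the counts were seen, 10 Col1a1fspKO cells had Irf8 alone, 10 had Cebpe alone and 1 was rich in both. In WT 11 cells had Irf8 alone, 10 Cebpe alone and 0 both. With so few cells rich in either gene a small overlap says little, and whether the genes exclude each other was not tested. The cells with Irf8 alone carried 133 of 164 Irf8 UMIs of the group in Col1a1fspKO and 127 of 162 in WT. Those with Cebpe alone carried 137 of 177 and 92 of 127 Cebpe UMIs. At 1 UMI or more the genes did share cells: Cebpe was read in 7 of 28 Col1a1fspKO cells with Irf8 and 17 of 47 without, and in WT in 10 of 28 and 16 of 42. For Gfi1, 20 of 35 and 10 of 18 UMIs were in cells with Cebpe alone, against 1 and 0 in cells with Irf8 alone. Among the former 1 Col1a1fspKO cell held 10 of the 20.

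Other genes separated along the same line. The secondary granule genes Ltf, Camp, Ngp and Lcn2 summed to 29991 and 22341 CPM in cells with Cebpe alone and to 2142 and 648 in cells with Irf8 alone. The monocyte markers summed to 232 and 366 CPM in the former and 1171 and 1109 in the latter. The median depth was 17276 and 15922 UMIs in cells with Cebpe alone, 9296 and 19601 with Irf8 alone and 8162 and 8804 in those below the mark. The same cells formed the cluster, so the split is a description.

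**Figure D2:**
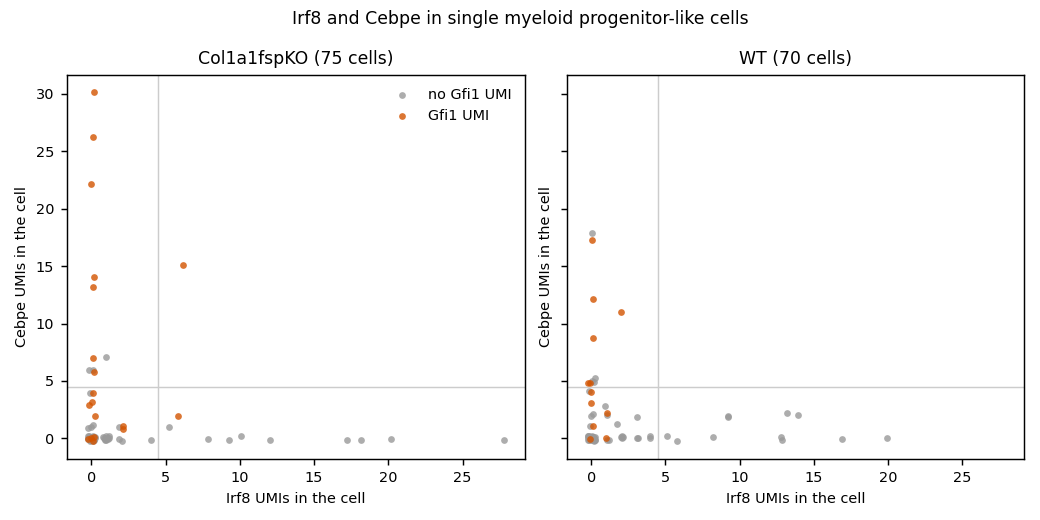
Irf8 and Cebpe UMIs in each of 75 Col1a1fspKO and 70 WT myeloid progenitor-like cells (points are moved by less than 1 UMI at random to show overlaps, orange points have a Gfi1 UMI, and grey lines separate cells with at least 5 UMIs). Cells with many UMIs of either gene lie near its axis, and 1 Col1a1fspKO cell and 0 WT cells reach the mark of 5 UMIs for both genes.

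Between the libraries most factors lay within 1.5-fold of each other. A factor was compared in a group where both libraries together held at least 50 of its UMIs, which gave 30 comparisons over 6 myeloid groups, and 4 were past 1.5-fold. Gfi1 was higher in Col1a1fspKO progenitor-like cells, 1 of 8 factors there, where 9.53% of all genes were past the fold. Cebpe was lower in mature neutrophil-like cells, 1 of 3 factors against 13.2% of genes. Cebpa was lower and Cebpe higher in monocyte-like cells, 2 of 8 factors against 6.81% of genes. In the Fcnb cluster, immature and maturing cells 0 of 5, 0 of 3 and 0 of 3 factors were past the fold, against 7.99%, 7.19% and 8.52% of genes. With so few factors per group, these counts are not read as a property of the set.

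**Figure D3:**
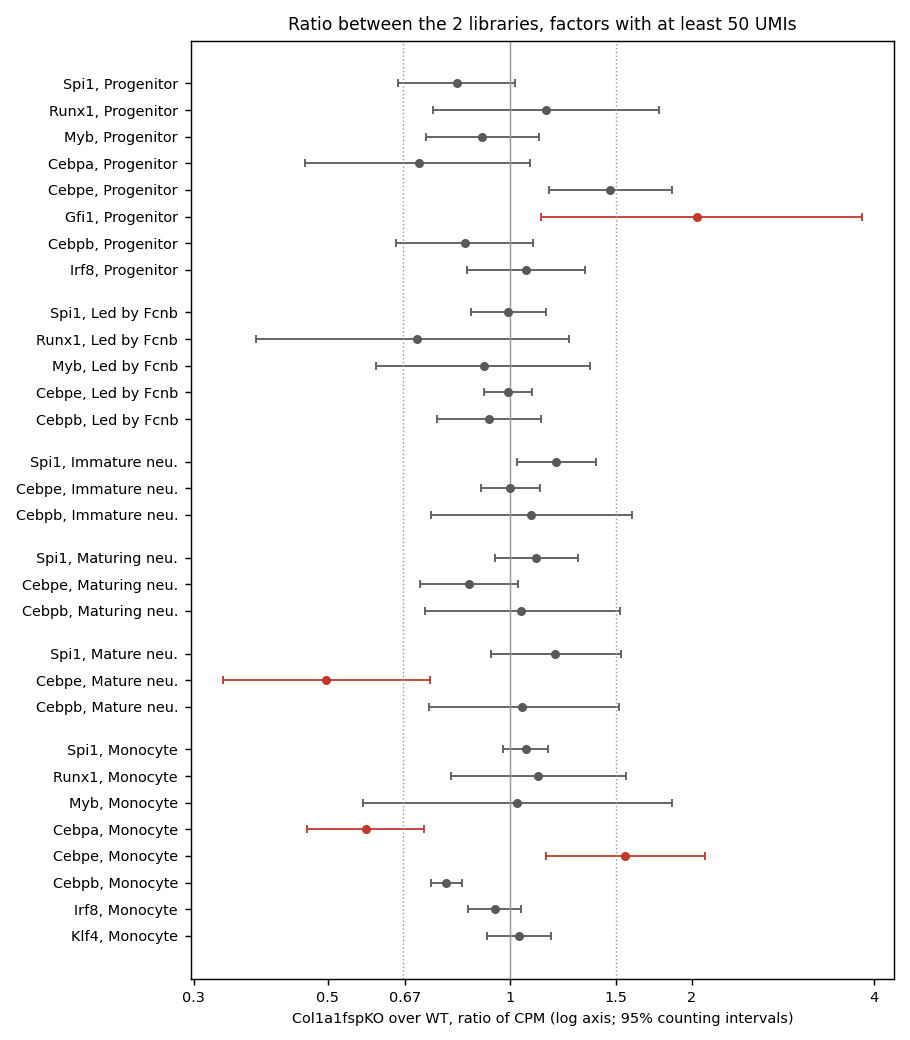
Ratio of the CPM in Col1a1fspKO to that in WT for the 30 comparisons of factor and group with at least 50 UMIs (log axis; bars are 95% exact binomial intervals from counting alone; dotted lines mark 1.5-fold either way; red marks the 4 past it). Cebpa in monocyte-like cells is at 0.578 and Cebpe in mature neutrophil-like cells at 0.496, while Spi1 in monocyte-like cells is at 1.06.

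Cebpa was lower in Col1a1fspKO monocyte-like cells. The 128 UMIs there and 219 in WT gave 65.1 (54.3 to 77.4) and 113 (98.3 to 129) CPM, a ratio of 0.578 (0.461 to 0.722). Cells with a Cebpa UMI made up 34.8% (29.1 to 40.9) and 51.6% (45.6 to 57.6) of the group, at median depths of 5951 and 5799 UMIs, and 18.7% (14.2 to 23.9) and 27.1% (21.9 to 32.7) after thinning to 2500 UMIs. B cells, which should lack the gene, had a UMI in 0 of 248 and 3 of 221 cells, the 0 allowing a share of up to 1.21%, at median depths of 4326 and 5469. The difference was spread over cells, with 25.5% and 32.1% of cells at 1 UMI and 6.74% and 14.4% at 2, and no cell of either library at 10 or more.

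All 3 monocyte-like clusters gave nearly the same Cebpa ratio. Cluster 0, led by Wfdc17, had 80.2 and 137 CPM, a ratio of 0.584 (0.435 to 0.780), in a cluster where 8.2% of genes were past the fold. Cluster 9, led by Ass1, had 59.8 and 102 CPM, a ratio of 0.584 (0.368 to 0.918), against 7.8% of genes. Cluster 11, led by Klf4, had 40.1 and 71.0 CPM and a ratio of 0.565 (0.299 to 1.04), an interval that includes 1. Progenitor-like cells pointed the same way with fewer UMIs, 39 and 58, and a ratio of 0.706 (0.458 to 1.08). Over 15 other settings the monocyte ratio ran from 0.538 to 0.725, the highest with cells thinned to 2500 UMIs.

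Cebpb was lower in the same cells by a smaller factor. Its 2022 and 2547 UMIs gave a ratio of 0.785 (0.740 to 0.832), within 1.5-fold, and the ratio ran from 0.763 to 0.793 over 15 other settings. The clusters did not share it. Cluster 9 had 841 and 855 CPM, a ratio of 0.985 (0.863 to 1.12), cluster 0 had 1186 and 1492, a ratio of 0.795 (0.735 to 0.859), and cluster 11 had 935 and 1430.3, a ratio of 0.654 (0.577 to 0.741) where 11.4% of genes were past the fold. Nearly every cell held a Cebpb UMI, 95.1% and 96.0%, against 6.85% and 8.14% of B cells, and 28.1% and 37.9% of cells held 10 or more.

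The lower Cebpb level was seen in cells with and without a Cebpa UMI. In Col1a1fspKO cells with one, Cebpb stood at 976 (906 to 1049) CPM, and in those without at 1062 (1005 to 1122). The WT values were 1342 (1271 to 1416) and 1279 (1208 to 1353) CPM.

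**Figure D4:**
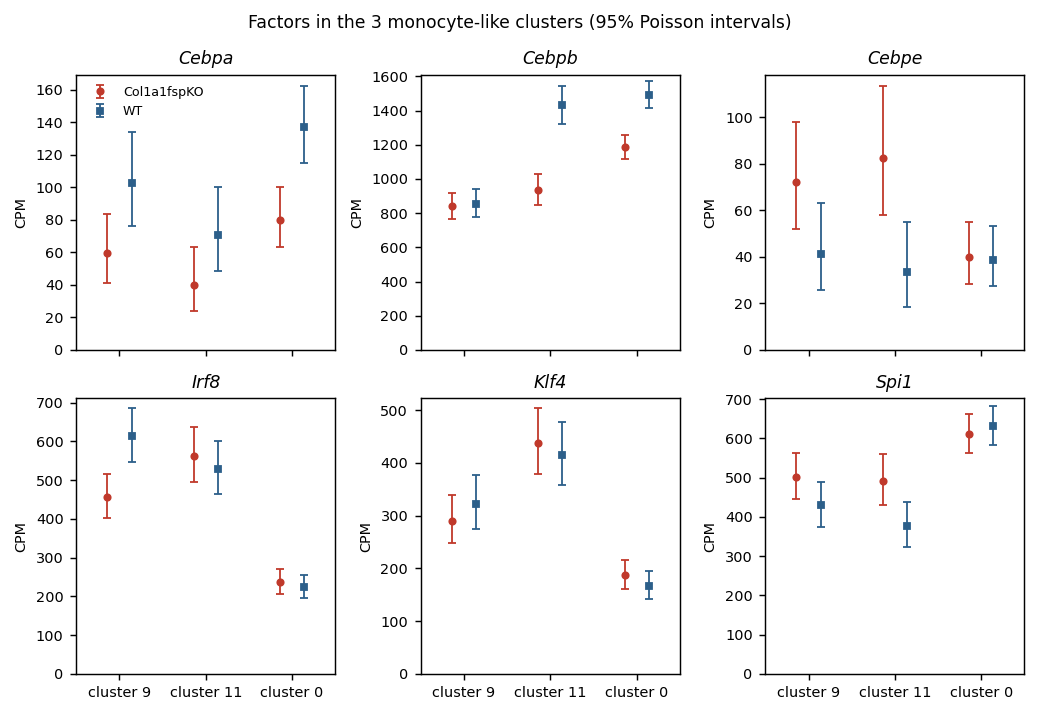
CPM of 6 factors in the 3 monocyte-like clusters, with 95% Poisson intervals from counting alone (red circles Col1a1fspKO, blue squares WT). Cebpa is lower in Col1a1fspKO in each cluster, at ratios of 0.565 to 0.584, and Cebpb is lower in clusters 0 and 11 but at 0.985 in cluster 9.

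**Figure D5:**
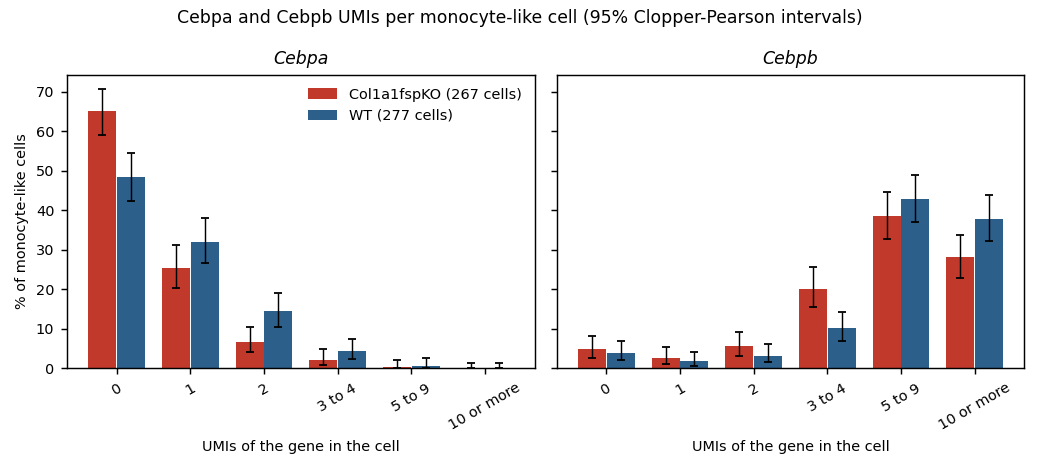
Share of monocyte-like cells (%) by their number of Cebpa and Cebpb UMIs in Col1a1fspKO (red) and WT (blue), with 95% Clopper-Pearson intervals. Cells with 0 Cebpa UMIs are 65.2% and 48.4% of the group in Col1a1fspKO and WT, and cells with 10 or more Cebpb UMIs 28.1% and 37.9%.

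Some other measures also differed between the 2 libraries in monocyte-like cells. Of the glucocorticoid response list 3 of 4 genes with enough UMIs were past 1.5-fold, all lower in Col1a1fspKO, where 6.81% of all genes were past it. The other, the kinase gene Sgk1, was at a ratio of 1.42 (0.913 to 2.22). Tsc22d3, the glucocorticoid-induced leucine zipper, was at 113 and 187 CPM, a ratio of 0.605 (0.509 to 0.716), and Klf9 at 9.16 and 21.6, a ratio of 0.424 (0.230 to 0.752). Fkbp5 had 21 and 35 UMIs and a ratio of 0.593 (0.328 to 1.05), an interval that includes 1. Of the dissociation response list 1 of 8 was past the fold, Jun, which was higher. The 5 immature neutrophil markers summed to 3410.5 and 2029 CPM and the 10 monocyte markers to 5577 and 5400.2. Cells in which immature neutrophil markers made up over 1% of UMIs numbered 8 and 7, and without them the Cebpa ratio was 0.587 (0.467 to 0.734) and the Cebpb ratio 0.793 (0.748 to 0.842). The part of the glucocorticoid response genes in the result was not tested.

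Cebpe was higher in Col1a1fspKO monocyte-like cells, at 59.0 (48.8 to 70.8) and 38.1 (29.9 to 47.8) CPM and a ratio of 1.55 (1.15 to 2.10). Cells with a Cebpe UMI were 22.8% and 18.8%, against 4.44% and 6.33% of B cells and 10.5% and 6.38% of the deeper erythroid cells, with medians of 9422 and 11794 UMIs. The immature neutrophil markers were also higher in the group as a whole, as given above, and their part in the Cebpe value was not tested. Without the cells rich in those markers the ratio was 1.4 (0.969 to 2.03), and without the top cell of each library 1.41 (1.02 to 1.95). One Col1a1fspKO cell held 20 of the 116 UMIs. Cluster 0 had a ratio of 1.04 (0.644 to 1.67), cluster 9 1.75 (1.01 to 3.11) and cluster 11 2.48 (1.33 to 4.86), the last 1.37 (0.629 to 3.08) without its top cells.

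In mature neutrophil-like cells Cebpe was lower in Col1a1fspKO. It had 62 UMIs in 113 cells and 48 in 40 WT cells, or 170.2 (130.5 to 218) and 343 (253 to 455) CPM, a ratio of 0.496 (0.335 to 0.739). Cells with a UMI were 41 of 113 and 20 of 40, and 31.0% and 45.0% after thinning. The direction differed between settings, and the cause was not tested. Of 14 other settings 12 also gave a ratio past 1.5-fold and lower in Col1a1fspKO, and 2 gave a ratio above 1. The ratio was 1.2 when cells of both libraries had to hold at least 2909 UMIs and 1.48 with single cells assigned by marker score, and 0.239 after CCA integration. The neighbouring maturing cells had a ratio of 0.855 (0.711 to 1.03), and the Fcnb cluster and immature cells 0.993 (0.906 to 1.09) and 1.0 (0.895 to 1.12). From maturing to mature cells the level ratio was 0.402 (0.30 to 0.533) and 0.694 (0.497 to 0.952).

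Gfi1 was higher in Col1a1fspKO progenitor-like cells, with a ratio of 2.04 (1.13 to 3.83), and Cebpe was higher there at 1.46 (1.16 to 1.85), short of 1.5-fold. Neither was stable. In Col1a1fspKO 1 cell held 10 of the 35 Gfi1 UMIs, and without the top cell of each library the ratio was 2.01 (0.992 to 4.28). Thinned cells gave 0.560 for Gfi1, in the other direction, from fewer UMIs and without an interval. Of 14 other settings 13 gave a Gfi1 ratio above 1, and 9 gave 1.5 or more. With 15 principal components the Gfi1 ratio was 1.14 and the Cebpe ratio 0.851. The share of cells with a Cebpe UMI, 32.0% and 37.1%, was not higher in Col1a1fspKO.

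Granule genes differed in the same progenitor-like cells. Of the textbook target list 6 of 9 genes were past 1.5-fold, with Ltf, Lcn2, Ngp and Cybb higher in Col1a1fspKO and Mpo and Elane lower, against 9.53% of all genes. Lcn2, a secondary granule gene, was at 389 and 190.4 CPM, and Mpo, the primary granule peroxidase, at 1029 and 1904. The immature neutrophil markers summed to 8093 and 5302 CPM and the 9 progenitor markers, Mpo and Elane among them, to 6953 and 10442. The part of this shift in the Gfi1 and Cebpe values was not tested.

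The remaining factors were closer between libraries. Over the 4 neutrophil clusters Spi1 had 560.2 and 475 CPM, a ratio of 1.18 (1.09 to 1.28), and by stage 0.994, 1.19, 1.11 and 1.19. The mature group, where Spi1 had its highest CPM, holds 113 and 40 cells, so the pooled value also carries the stage mix. In monocyte-like cells the ratio was 1.03 (0.915 to 1.17) for Klf4, 0.944 (0.852 to 1.05) for Irf8, 1.06 (0.974 to 1.16) for Spi1 and 1.11 (0.799 to 1.56) for Runx1. Irf8 in plasmacytoid dendritic cells had a ratio of 0.826 (0.739 to 0.922), and in monocyte-like cluster 9 456 and 614 CPM and a ratio of 0.742 (0.627 to 0.878). Myb was at 0.901 (0.726 to 1.12) in progenitor-like cells. In erythroid cells it was at 0.605 (0.414 to 0.877), past the fold in a group where 9.87% of genes were.

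Between the monocyte-like clusters Klf4, Irf8, Cebpa and Myb also differed, in the same direction in both libraries. The Cebpb levels given above rose from cluster 9 to 11 to 0, by steps that differed in size between the libraries. Klf4 stood at 439 and 415 CPM in cluster 11 and 187 and 167 in cluster 0, so cluster 0 had 0.426 (0.345 to 0.524) and 0.402 (0.324 to 0.499) of its level. Irf8 gave 0.419 (0.349 to 0.504) and 0.422 (0.35 to 0.509) for the same step. Cebpa went the other way, with 2.0 (1.18 to 3.55) and 1.93 (1.31 to 2.94) times the level of cluster 11 in cluster 0. Myb was read in cluster 9, with 18 and 17 UMIs, and hardly in cluster 0, with 1 UMI in each library. High Irf8 lay in few cells, since the 13 and 15 monocyte-like cells with 10 or more UMIs held 39.5% and 37.7% of its UMIs.

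Other factors of the same networks mostly lay within 1.5-fold. In monocyte-like cells 0 of 2 C/EBP relatives and regulators were past it, against 6.81% of all genes, with Cebpg, a dimer partner of C/EBP proteins, at 88.5 and 117 CPM and a ratio of 0.758 (0.618 to 0.927). Of the GFI1, RUNX1 and MYB partners 1 of 8 was past it, the coactivator Ep300 at 22.9 and 36.0 CPM. In the same cells 0 of 5 stem and progenitor factors and 0 of 7 late neutrophil factors were past it.

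In progenitor-like cells 3 of 10 stem and progenitor factors were past 1.5-fold, all higher in Col1a1fspKO, against 9.53% of all genes. Hoxa9, a progenitor homeobox gene, had 77.3 and 35.0 CPM, a ratio of 2.21 (1.41 to 3.53), and Meis1, its partner, 68.7 and 42, a ratio of 1.63 (1.06 to 2.56). Mycn was the other, at 1.62 (0.922 to 2.91). Of the monocyte and dendritic cell factors 1 of 5 was past it (Id2), of the late neutrophil factors 1 of 4 (Junb), and of the partners of GFI1, RUNX1 and MYB 0 of 5.

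Genes whose course was most like each factor were read over 26 groups, each a cluster in 1 library with at least 20 cells, among 6167 genes. Likeness was Pearson's r of log2(CPM + 10), a description over groups that share libraries. Cebpe went with Trem3 (r = 0.954), Fam101b and Gm1604a, and Spi1 with Shfm1 (r = 0.936) and Mgst1. Klf4 went with C1galt1c1 (r = 0.960), Lamp1 and Naaa, and Irf8 with H2-DMa (r = 0.938), which acts in antigen presentation, Pkib and Coro2a. Cebpb went with Adam15 (r = 0.939), Smpdl3a and Tgfbi, and Cebpa with Trf (r = 0.897), the gene of transferrin, Ccl9 and Il6ra. The likeness was looser for Gfi1 with Pde4d (r = 0.80), Ada and Entpd5. Myb went with Fam216a (r = 0.839), Cdk6 (r = 0.832), a cell cycle kinase, and Mettl6, and Runx1 with Btbd2 (r = 0.821), Dock10 and Cbfb (r = 0.794), the last the binding partner of RUNX1.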

How the data were processed

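The submitters' processing notes name Cell Ranger, the mm10 build and Seurat 3.5.3, and the Cell Ranger version is not given in the sources used here. The authors deposited 1 matrix of unnormalized UMI counts (genes by cells) per library. Cells were to have 200 to 7000 genes and no more than 10% of UMIs from mitochondrial genes, and all cells passed. Counts of both libraries were clustered with Seurat 5.3.0 in R 4.3.3 (27 principal components, resolution 0.8, 2000 variable genes, of which 44 listed genes were left out). Clusters were named from marker lists. Doublets were kept, and their removal (Scrublet in scanpy 1.11.5) was an alternative. UMIs were summed per group and library and given as CPM in Python 3.11.15 with scipy 1.17.1. Factors were compared at 50 or more UMIs over both libraries, a 1.5-fold difference either way was called past the fold, and a count of 0 was bounded by 3 UMIs.

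The depth was 8647722 UMIs in Col1a1fspKO and 8624469 in WT. For each factor the 3 genes most like it were taken, among genes with 200 or more UMIs. Some results for single genes are not reported here. Simulated counts with known ratios were used to test the interval calculations. The factors, markers and gene lists were chosen with earlier results of these data known. Alternatives changed the clustering, cell filter, naming, scaling, depth, UMI minimum and fold.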

Additional observations from a re-analysis of the deposited data

Results flagged for a closer look

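The Cebpe ratio of Col1a1fspKO over WT lay on opposite sides of 1 in mature neutrophil-like and monocyte-like cells, at 0.496 (0.335 to 0.739) and 1.55 (1.15 to 2.10). The difference between the groups was not tested, since each genotype is 1 library. In mature cells the ratio was 1.2 with a shared UMI minimum and 1.48 by marker score, and there both groups lay above 1. It lay below 1 in 12 of 14 other settings.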

How the results depend on the processing

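No paired analysis was possible because each genotype is 1 library and the labels carry no replicate numbers. The count of factors past 1.5-fold, 4 of 30, was 2 of 23 with cells thinned to 2500 UMIs, 13 of 49 with no minimum beyond 1 UMI in each library and 2 at 2-fold, and 3 to 6 under the other settings. The count of stage steps past the fold in both libraries, 19 of 36, was 7 of 9 at resolution 0.4, which merged neutrophil groups, so ratios of those groups have no value there. Steps had no UMI minimum, so some rest on a few UMIs. The share of all genes past the fold over the same steps was not counted, so the 19 are not read as a property of the factors. Progenitor-like cells with both a Gfi1 and an Irf8 UMI numbered 7 of 145 and 0 after thinning. Directions reversed for Gfi1 in progenitor-like cells (0.560 thinned) and for Cebpe in mature neutrophil-like cells (1.2 with a shared UMI minimum, 1.48 by marker score). The Gfi1 ratio lay above 1 in 13 of 14 other settings, and the Cebpe ratio below 1 in 12 of 14. The cause of the reversals was not tested. Cebpe in progenitor-like cells, 1.46, was 0.820 to 0.851 with 15 principal components, all variable genes, CCA integration or the stricter cell filter. Leaving out Scrublet doublets, the top cell or cells rich in neutrophil markers was added after the data had been seen. Few UMIs limit Gfi1, Runx1, Klf4, Irf8 and Cebpa in neutrophils.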

Other observations

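Klf2, a quiescence factor, was past 1.5-fold and higher in Col1a1fspKO in the Fcnb cluster, at 64.7 and 42.4 CPM and a ratio of 1.53 (1.01 to 2.31). It was also past it in maturing cells, at 1.60 (1.15 to 2.26), and in mature neutrophil-like cells, at 1.58 (1.01 to 2.56). In immature neutrophil-like cells the ratio was 1.37 (0.95 to 1.98). Klf2 was singled out after its values were seen.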
